A study of Sus scrofa with 12 samples.

Results

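The FAM46 genes (also named TENT5) code for poly(A) polymerases outside the canonical family, enzymes that lengthen the poly(A) tail of mRNAs in the cytoplasm. The 4 members FAM46A, FAM46B, FAM46C and FAM46D were taken by symbol from the gene table of porcine ovaries, which lists 29884 genes. FAM46C was chosen by its measured FPKM levels, because all 3 ovaries of sows with a large litter size (LLS) lay above all 3 ovaries of sows with a small litter size (SLS). The other members were included because they belong to the same family. Left ovaries came from commercial sows slaughtered 4 days after delivery number 4, with 1 ovary per sow. The SLS sows (ovaries ZD2, ZD3 and ZD12) had 8.48 ± 0.53 piglets per litter, and the LLS sows (ZD5, ZD7 and ZD8) 16.19 ± 0.43, as the series' design text gives them (the methods present results as mean ± SEM). No treatment was applied to either group, and the breed and age of the sows are not given in the sources used here. RNA was sequenced after removal of ribosomal RNA, and levels are in FPKM, the reads on a gene scaled by the length of its longest transcript and by the total reads of the library. Values of single ovaries are given in the order ZD2, ZD3, ZD12 for SLS and ZD5, ZD7, ZD8 for LLS.

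A poly(A) tail protects an mRNA from decay and helps its translation, and its length is set by polymerases that add adenosines and deadenylases that remove them. FAM46C is bound to the endoplasmic reticulum through FNDC3A and FNDC3B and acts on mRNAs of secreted proteins. It is best known as a tumour suppressor of multiple myeloma that keeps immunoglobulin mRNAs stable in plasma cells, and it is also induced by type I interferon. FAM46A acts on type I collagen mRNAs in bone, and loss of it causes a form of brittle bone disease. FAM46B is known from pluripotent stem cells, and FAM46D from testis and as a cancer-testis antigen. In mice, FAM46B and FAM46C act in oocytes on mRNAs of secreted proteins, among them those of the zona pellucida.

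The members share a nucleotidyltransferase fold, whose active site has a glycine and serine followed by a pair of aspartates that hold the metal ions. The coding stretch for this site is printed to show what the 4 genes have in common and how far apart their sequences are. It was read from the Sscrofa11.1 reference on the coding strand, 5′ to 3′, with the codons of the glycine, the serine and both aspartates in capitals.
FAM46A: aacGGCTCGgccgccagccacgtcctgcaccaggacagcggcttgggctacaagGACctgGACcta
FAM46B: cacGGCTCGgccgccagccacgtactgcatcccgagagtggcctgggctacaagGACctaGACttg
FAM46C: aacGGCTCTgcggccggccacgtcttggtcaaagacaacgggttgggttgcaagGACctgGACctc
FAM46D: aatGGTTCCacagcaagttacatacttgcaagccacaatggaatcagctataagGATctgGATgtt

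These stretches of 66 bases lie at chr1:84546069-84546134 (plus strand, exon 2 of FAM46A), chr6:84305295-84305360 (minus strand, exon 2 of FAM46B), chr4:103137119-103137184 (minus strand, exon 2 of FAM46C) and chrX:64120437-64120502 (plus strand, exon 1 of FAM46D). The aspartates are codons 90 and 92 of FAM46C. FAM46A and FAM46B had 55 of the 66 bases in common, FAM46A and FAM46C 53, and FAM46C and FAM46D 36. Over the whole aligned coding sequence, base identity was between 59.8% (FAM46B with FAM46D) and 75.7% (FAM46B with FAM46C), gaps left out. The closest pair depends on the measure. Once translated, FAM46A with FAM46C had the highest identity (71.3%), and FAM46B with FAM46C had 63.3%. In the printed stretch FAM46B and FAM46C had 44 of the 66 bases in common. The longest run of bases that any 2 of the 4 transcripts shared was 29, between FAM46A and FAM46D. A read longer than that run would match no second member without a mismatch.

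The gene models differed in size. FAM46C (chr4:103131819-103154074, minus strand) has its whole coding sequence of 1176 bases in 1 exon, and its longest annotated transcript of 6092 bases carries a 3′ UTR of 4403 bases. FAM46A (chr1:84545033-84552138, plus strand) has a transcript of 5702 bases, and FAM46B (chr6:84303495-84310957, minus strand) one of 2612 bases. FAM46D (chrX:64120229-64122912, plus strand) is annotated as a single exon of 2684 bases. In the model of FAM46B, the smallest gap between neighbouring exons is 1 base, too short for an intron.

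The deposited levels gave whole reads when multiplied by the longest transcript, and the libraries held between 32272803 (ZD8) and 60903268 (ZD2) reads. The LLS ovary ZD8 stood apart in its tissue markers. The summed level of 7 luteal markers came to 124.1 FPKM in ZD8, where the remaining 5 ovaries held 9168 to 12190 FPKM, while the sum of 12 oocyte markers was 135 FPKM in ZD8 and 8.37 to 25.3 FPKM in the others. In each list 1 marker went against its sum. SOHLH1 of the oocyte list was at 0.49 FPKM in ZD8 and 1.66 to 11.25 FPKM elsewhere. PRLR of the luteal list was at 1.16 FPKM in ZD8 and at most 0.17 FPKM elsewhere. The part of these differences in the results was not tested, and values without ZD8 stand beside the group differences of the members, the counts of the lists and the correlations. In tissue RNA, fewer cells of a type and less RNA per cell cannot be told apart.

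FAM46C was the member that set the groups apart, as its choice required. The SLS ovaries held 12.3, 9.27 and 14.96 FPKM of FAM46C, from 4569, 2920 and 4824 reads. The LLS ovaries held 44.9, 38.2 and 34.1 FPKM, from 15749, 14170 and 6711 reads. Every LLS ovary was thus above every SLS ovary, and the lowest LLS level was 2.28 times the highest SLS level. The mean level was 12.2 ± 2.85 FPKM in SLS (SD, n = 3) and 39.1 ± 5.43 FPKM in LLS (SD, n = 3), a ratio of 3.21. On the scale of log2(FPKM + 1), the difference of LLS from SLS was 1.62 with a standard error of 0.27. No test is given, since the gene was picked for this contrast.

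The SD of log2(FPKM + 1) of FAM46C was 0.19 in LLS and 0.32 in SLS, a description only, since a gene picked for groups that do not overlap tends to have a small spread within them. The tests ran over the 12260 genes with at least 1 FPKM in at least 3 libraries. The LLS ovary ZD8, with few luteal transcripts, had the lowest FAM46C level of its group. Its place above the SLS ovaries was fixed by the choice of the gene. Without ZD8 the log2 difference was 1.71.

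**Figure D1:**
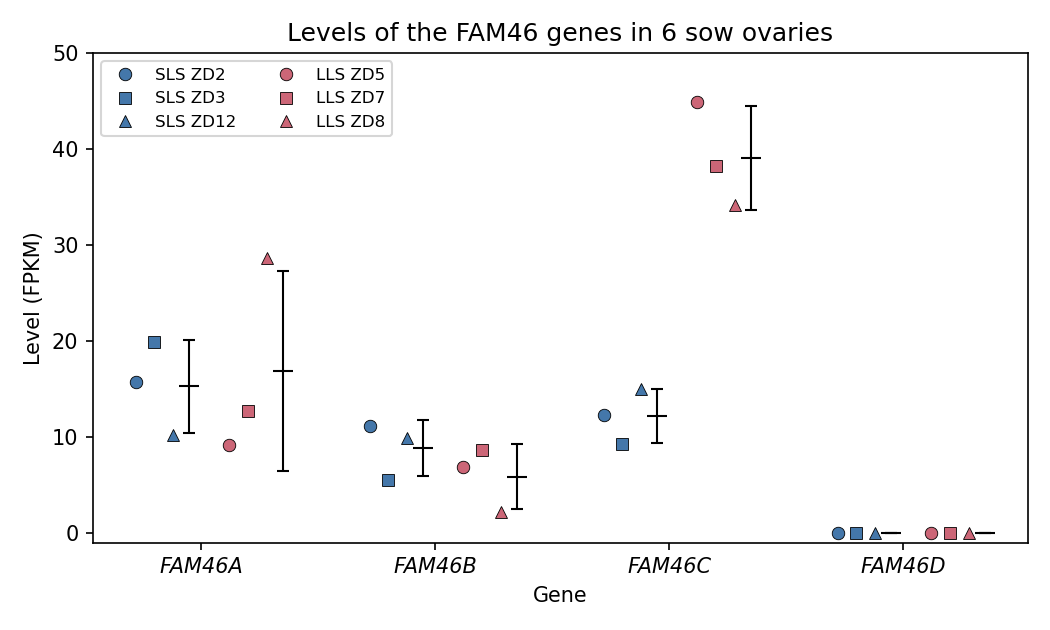
Level in FPKM (y axis) of each FAM46 gene (x axis) in each ovary, with blue points for SLS and red points for LLS ovaries, and the mean ± SD of 3 ovaries in black beside them. The LLS and SLS points of FAM46C do not overlap (34.1 to 44.9 against 9.27 to 14.96 FPKM), those of FAM46A and FAM46B do, and FAM46D is at or near 0.

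Among all genes such a separation was uncommon over the 6 ovaries. All 3 LLS ovaries lay above all 3 SLS ovaries for 239 of the 12260 genes (1.95%) and below them for 389 (3.17%). With ZD8 left out, 912 genes (7.44%) lay higher in LLS with no overlap and 1429 (11.7%) lower, where fewer ovaries overlap less. FAM46C had the widest gap of the 239, 1.14 on the log2(FPKM + 1) scale between the lowest LLS and the highest SLS ovary, followed by CHST9 with 0.98 and GLIPR1 with 0.88. With both directions counted, its gap was number 5 of 628. By the difference of means it came as number 3 of the 239. These ranks describe the gene that the rule had picked and are no evidence of their own. FAM46A and FAM46B were both outside the rule, with groups that overlapped.

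**Figure D2:**
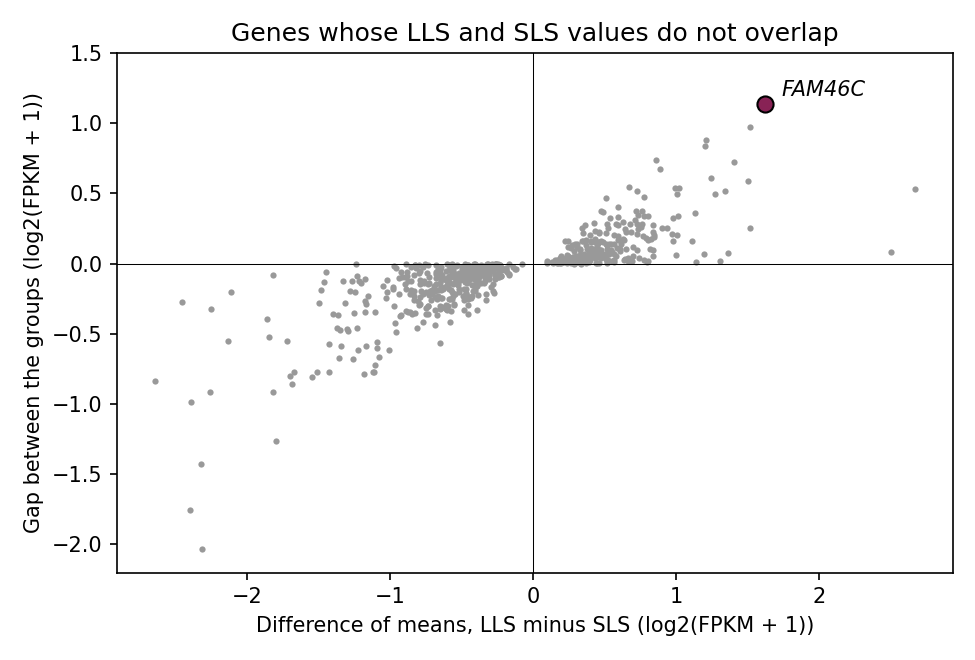
Each point is 1 of the 628 genes whose LLS and SLS values do not overlap, by the difference of the group means (x axis) and by the gap between the nearest ovaries of the 2 groups (y axis, negative where LLS is lower), both in log2(FPKM + 1). FAM46C, marked, has a gap of 1.14, the widest among genes higher in LLS.

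FAM46A, the member with a role in bone collagen, did not follow the groups. It was at 15.8, 19.9 and 10.2 FPKM in SLS. In LLS it was at 9.18, 12.7 and 28.7 FPKM. The highest and the lowest of the 6 levels both belonged to LLS, with ZD8 at the top. The mean was 15.3 ± 4.83 FPKM in SLS (SD, n = 3) and 16.9 ± 10.4 FPKM in LLS (SD, n = 3). Their difference of 0.02 on the log2(FPKM + 1) scale (standard error 0.43, 95% interval -0.97 to 1.02) had an adjusted p of 0.999 by limma. The exact permutation test over ovaries gave p = 1, where 3 ovaries against 3 cannot go below 0.1. The difference was -0.42 without ZD8 and -0.22 without ZD12, so its sign rests on single ovaries. The type I collagen genes COL1A1 and COL1A2, whose mRNAs FAM46A acts on in bone, were at 377 to 3002 and 466 to 2378 FPKM, with groups that overlapped.

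FAM46B had the lowest mean of the 3 members with measurable levels. Its levels were 11.2, 5.57 and 9.89 FPKM in SLS, and 6.84, 8.65 and 2.14 FPKM in LLS. The groups overlapped, and ZD8 was the lowest of the 6 ovaries, with 180 reads against 752 to 1777 in the others. The mean was 8.88 ± 2.94 FPKM in SLS (SD, n = 3) and 5.88 ± 3.36 FPKM in LLS (SD, n = 3). The log2 difference of -0.63 (standard error 0.46, 95% interval -1.69 to 0.44) did not pass the test (adjusted p = 0.999 by limma, exact permutation p = 0.4). Without ZD8 the difference was -0.13, so most of it came from that ovary.

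Neither FAM46A nor FAM46B was called at an adjusted p under 0.05 with an absolute log2 difference over 1. No gene of the 12260 was called by limma (0%), with 216 at an unadjusted p under 0.05, so this count says little about the members. On recovered reads, 0 genes were called by edgeR and 13 by DESeq2. Without ZD8, limma called 21 genes.

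FAM46D, the testis member, was close to absent from these ovaries. It had 1 read in the SLS ovary ZD12, 1 read in the LLS ovary ZD8 and 0 reads in the other 4. In libraries of this depth, a count of 0 allows up to 3 reads, or between 0.0184 and 0.0346 FPKM of FAM46D. No fold change is given, since both groups were under that limit. The limit covers counting error only.

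The order of the mean levels was FAM46C, FAM46A, FAM46B and FAM46D, which can be compared because FPKM is per length. Over the 6 ovaries the means were 25.6 ± 15.2 FPKM for FAM46C, 16.1 ± 7.30 FPKM for FAM46A and 7.38 ± 3.27 FPKM for FAM46B (SD, n = 6). FAM46C exceeded FAM46A in 4 of 6 ovaries, by 0.51 ± 1.18 on the log2(FPKM + 1) scale (SD, n = 6), a difference smaller than its spread. The ovaries where FAM46A was higher were ZD2 and ZD3, both SLS, and the SLS mean was higher for FAM46A (15.3 FPKM) than for FAM46C (12.2 FPKM), so the first place of FAM46C comes from the LLS ovaries for which it was picked. The p computed for this pair is not read as a result for that reason. FAM46A exceeded FAM46B in 6 of 6 ovaries, by 1.05 ± 1.21 (SD, n = 6; exact sign-flip permutation test, two-sided, p = 0.031, adjusted over the 3 pairs computed 0.0469), although by as little as 0.05 in ZD12. The smallest p that 6 ovaries allow is 0.031. FAM46B lay above FAM46D, which had 0 or 1 read, in every ovary. That outcome was fixed by the reads, its size depends on the value added before the logarithm, and its p is not read as a result. The adjusted value for FAM46A and FAM46B is under 0.05 only because this pair ties with it. The place of FAM46C depends on its transcript, since the shorter of its 2 annotated transcripts has 1433 bases. Divided by that length its mean level would be 109 FPKM, and it would exceed FAM46A in 6 of 6 ovaries. The ratio between ovaries does not depend on this choice as long as all use the same transcripts. Among the 12260 genes, 77.4% had a lower mean of log2(FPKM + 1) than FAM46C, 67.1% a lower one than FAM46A and 40.2% a lower one than FAM46B.

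The make-up of the family differed between the groups along with FAM46C. It took 31.4%, 26.7% and 42.6% of the summed FAM46 level in SLS, and 73.7%, 64.1% and 52.5% in LLS. The sum of the 4 genes was 39.2, 34.7 and 35.1 FPKM in SLS and 60.9, 59.6 and 65.0 FPKM in LLS. The sum of FAM46A and FAM46B alone overlapped between the groups, with 26.9, 25.4 and 20.1 FPKM in SLS and 16.0, 21.4 and 30.8 FPKM in LLS. The higher family sum in LLS was therefore carried by FAM46C, which the rule had picked, and is not a separate result. In ZD8 the other members were out of proportion, with FAM46A at 13.4 times FAM46B, against 1.04 to 3.57 times in the other 5 ovaries.

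**Figure D3:**
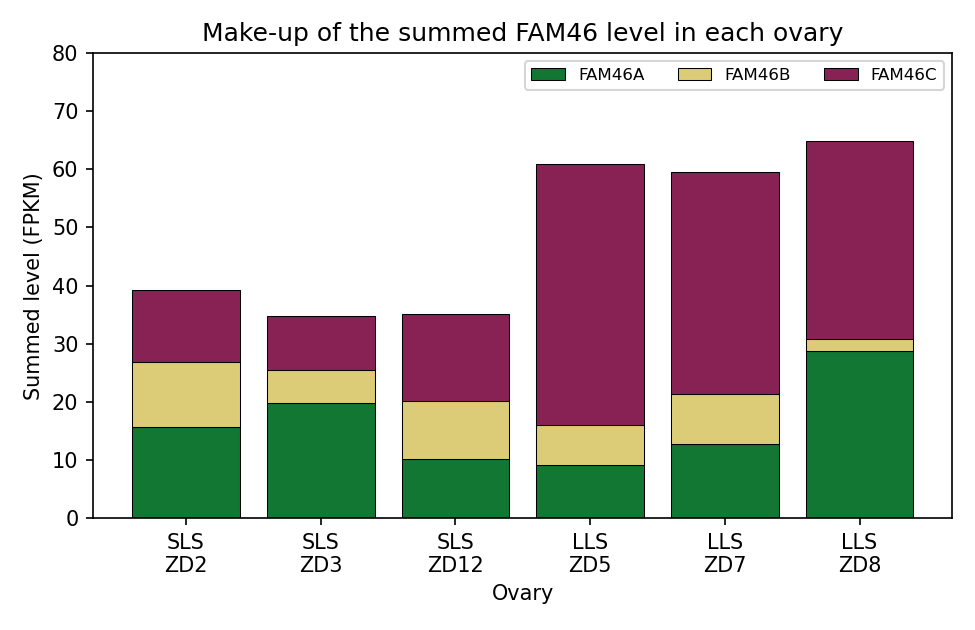
Summed FAM46 level in FPKM (y axis) in each ovary (x axis), with FAM46A in green, FAM46B in yellow and FAM46C in purple, and FAM46D left out because it is at or near 0. The purple part makes up 26.7% to 42.6% in SLS and 52.5% to 73.7% in LLS ovaries.

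The other enzymes that lengthen or tag RNA ends were set beside the family. PAPOLA, the canonical nuclear poly(A) polymerase, was the most abundant of them, with 43.7, 77.5 and 51.5 FPKM in SLS and 62.3, 51.7 and 49.95 FPKM in LLS. The cytoplasmic polymerase PAPD4 (TENT2) was at 4.59 to 8.42 FPKM in SLS and 5.31 to 11.4 FPKM in LLS. PAPD5 and PAPD7 (TENT4B and TENT4A), which add mixed tails, and the mitochondrial enzyme MTPAP overlapped between the groups as well. ZCCHC6 and ZCCHC11 (TUT7 and TUT4), which add uridines, were highest in ZD8, at 20.48 and 16.3 FPKM, against 5.76 to 10.96 and 3.62 to 7.55 FPKM in the other 5 ovaries. PAPOLB, a polymerase known from testis, was at 0.31 to 1.95 FPKM and below the filter on low levels. Of 10 such enzymes 9 were tested. None was called, as for 0% of all genes tested by limma, and 0 had groups that did not overlap, where 1.95% of all genes were higher and 3.17% lower, so these counts are near the background. The median log2 difference was 0.16, against 0.02 over all genes, and turned to -0.10 without ZD8, as did that of all genes (-0.10). The differences ran from -0.04 for PAPOLA to 0.33 for ZCCHC11.

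Factors that shorten and bind the tail were examined next. Of 20 deadenylases and their adaptors (the CCR4-NOT complex, PAN2 and PAN3, PARN, and the TOB and BTG proteins that recruit them), 19 were tested. None was called by limma (adjusted p = 0.999 for the lowest), as for all genes (0%). The differences ran from -0.34 to 0.48 with a median of 0.15, which turned to -0.07 without ZD8. Of 14 poly(A)-binding proteins and cytoplasmic polyadenylation factors, 13 were in the table and 10 were tested, again with 0 called. Their differences ran from -0.64 for CPEB2 to 0.84 for CPEB1, which both bind the cytoplasmic polyadenylation element. CPEB1 was at 17.8 FPKM and CPEB2 at 3.87 FPKM in ZD8, against 0.55 to 4.37 and 22.6 to 48.7 FPKM in the other 5 ovaries, so both extremes came from ZD8. Over the 3 lists together, 0 of 38 tested genes had groups that did not overlap, beside 1.95% of all genes higher and 3.17% lower, and nothing about the lists is read from it. Without ZD8, 2 lay higher in LLS and 1 lower, beside 7.44% and 11.7% of all genes tested.

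Of the 4 binding partners of the FAM46 proteins, 0 had groups that did not overlap, beside 1.95% and 3.17% of all genes. FNDC3A, which carries FAM46C to the endoplasmic reticulum, was at 51.5, 115 and 62.8 FPKM in SLS and 97.7, 81.9 and 40.4 FPKM in LLS. FNDC3B was at 43.2, 48.6 and 46.9 FPKM in SLS and 37.6, 36.3 and 60.5 FPKM in LLS. Both groups overlapped, with log2 differences of -0.07 and -0.08 (standard errors 0.44 and 0.29, adjusted p = 0.999 for each by limma). BCCIP, a reported partner of FAM46A, had a difference of 0.07. PLK4, a kinase of centriole duplication reported to bind FAM46C, had one of -0.39. Without ZD8, 1 of the 4 genes, FNDC3B, lay lower in LLS with no overlap, as did 11.7% of all genes tested.

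**Figure D4:**
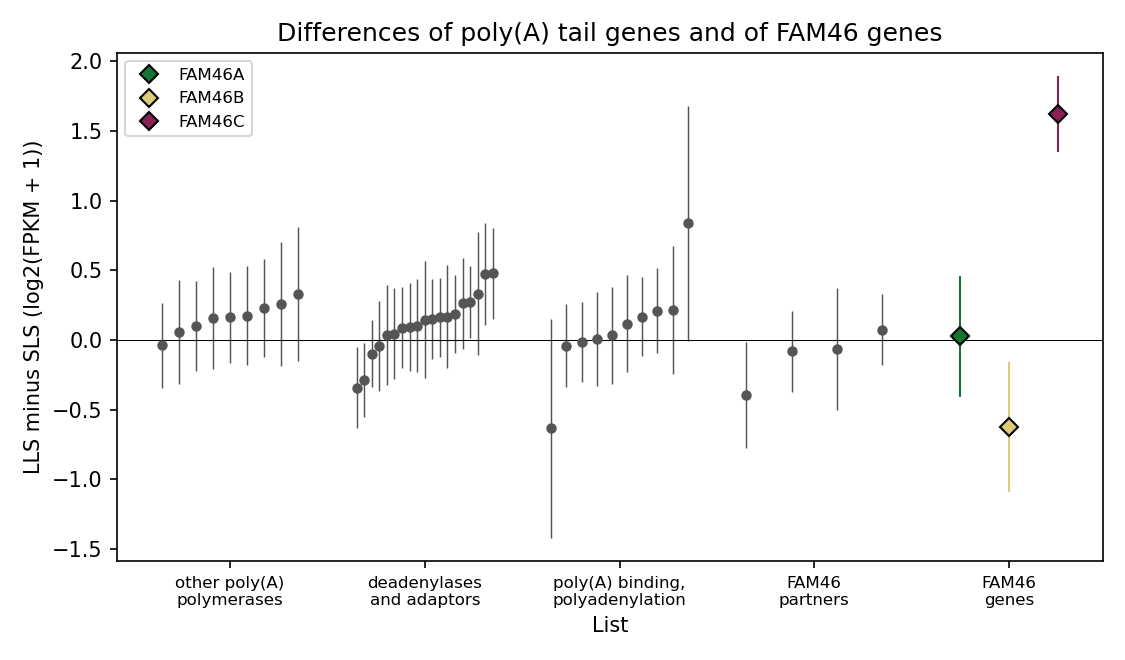
Difference of LLS from SLS in log2(FPKM + 1) (y axis) with its standard error from limma, for each tested gene of 4 lists (grey points, ordered within a list) and for FAM46A, FAM46B and FAM46C (diamonds). The grey points lie between -0.64 and 0.84, and FAM46C lies at 1.62.

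FAM46C is itself an interferon-stimulated gene, and 12 others were examined. All 12 were tested, 0 were called (0% of all genes), and the median log2 difference was -0.36, with USP18 (0.32) and IFI6 (0.21) above 0 and the other 10 below. The part of interferon in the level of FAM46C was not tested. OAS1, a sensor of double-stranded RNA, and RSAD2, an antiviral enzyme, lay lower in all LLS than in all SLS ovaries, where 3.17% of all genes did so. OAS1 was at 4.23, 3.20 and 2.14 FPKM in SLS and 0.15, 1.76 and 0 FPKM in LLS. RSAD2 was at 1.95, 1.09 and 3.51 FPKM in SLS and 1.07, 0.70 and 0.49 FPKM in LLS. Without ZD8, 6 of the 12 lay lower in LLS with no overlap and 0 higher, beside 11.7% and 7.44% of all genes tested.

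Markers of B and plasma cells, in which FAM46C is best known, differed widely in level. The B cell gene MS4A1 was at most 0.11 FPKM and CD79A at most 0.52 FPKM in any ovary. The plasma cell gene JCHAIN was at 0.99, 1.98 and 2.40 FPKM in SLS and 2.38, 1.70 and 7.40 FPKM in LLS, and TNFRSF17 was listed at 0 in 3 ovaries. Only 4 of the 13 markers were tested, and 0 of these were higher in all LLS ovaries. The summed level of the list, 251 to 312 FPKM in SLS and 194 to 248 FPKM in LLS, was mostly XBP1 (162 to 259 FPKM), a gene of the secretory pathway that many cells use. SDC1, which epithelial cells also express, was at 41.1 to 56.7 FPKM in 5 ovaries and 6.64 FPKM in ZD8. MZB1 was at 5.02 FPKM in ZD8 and at most 1.498 FPKM elsewhere, and PRDM1 was at 0.90 to 2.002 FPKM. The part of plasma cells in the level of FAM46C was not tested. Across 12 marker lists, 54 of 81 genes were tested, and 1 of them, the epithelial gene EPCAM, was higher in all LLS than in all SLS ovaries, while 4 (LHCGR, INHA, XBP1 and PECAM1) were lower, beside 1.95% and 3.17% of all genes. EPCAM was at 0.31, 0.34 and 1.28 FPKM in SLS and 27.8, 9.73 and 2.31 FPKM in LLS. The other 4 epithelial markers tested had log2 differences below 0 (CDH1 -0.10, KRT7 -0.23, KRT8 -1.16 and KRT19 -1.47). The summed level of the 6 epithelial markers, EPCAM included, overlapped, with 8.62 to 57.7 FPKM in SLS and 19.5 to 34.3 FPKM in LLS. The part of epithelial cells in the level of FAM46C was not tested. Without ZD8, 7 of the 54 lay higher in LLS and 13 lower, beside 7.44% and 11.7% of all genes. Of the 5 smooth muscle markers, 4 were among those lower and 0 among those higher. Their median log2 difference was then -1.21, against -0.10 over all genes. In the same fit limma called 1 oocyte marker and 1 epithelial marker, beside 21 of the 12260 genes. These calls do not stand for their lists. The median log2 difference without ZD8 was 0.02 over the 4 oocyte markers tested and -0.68 over the 5 epithelial ones. Of those 5, 1 lay higher in LLS and 2 lower with no overlap. The part of smooth muscle in the level of FAM46C was not tested.

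The genes whose pattern over the 6 ovaries was most like that of a member were named by Pearson correlation of log2(FPKM + 1), as a description. For FAM46C these were FOXJ2 (r = 0.994), ANO10 (0.99), FAXDC2 (0.989), SNX29 (0.981) and CNNM2 (0.98). FAM46C was picked for its split of the groups, so genes chosen for likeness to it tend to share that split. Their split is no separate result. FOXJ2, a forkhead transcription factor, was at 12.3, 10.7 and 12.2 FPKM in SLS and 20.6, 18.8 and 18.5 FPKM in LLS. FAXDC2 was at 1.33, 1.06 and 1.59 FPKM in SLS and 5.60, 3.92 and 3.62 FPKM in LLS, with ZD5 the highest, as for FAM46C. The same 5 genes had r between 0.985 and 0.994 without ZD8. In all, 33 of the tested genes had r above 0.9 with FAM46C, and 210 without ZD8, where fewer ovaries reach a high r more easily.

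**Figure D5:**
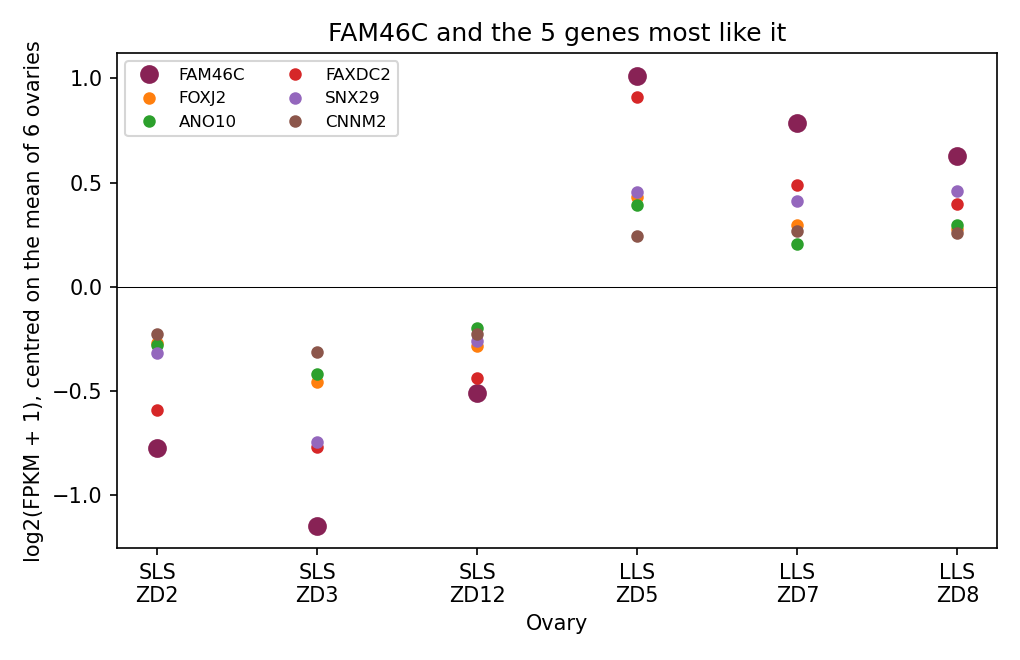
log2(FPKM + 1) of FAM46C and of the 5 genes most like it, each centred on its mean over the 6 ovaries (y axis), by ovary (x axis). All 6 genes lie below 0 in the 3 SLS and above 0 in the 3 LLS ovaries, with FAM46C the farthest from 0 in each LLS ovary. FAM46C was picked for this split, and genes chosen for likeness to it tend to share it.

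FAM46B had many more genes like it. SMPD1, a lysosomal sphingomyelinase, NAA10, an acetyltransferase of protein ends, ATP5G1, a subunit of the mitochondrial ATP synthase, ABCB8 and COPE had r between 0.997 and 0.998, and 721 genes had r above 0.9 (1117 without ZD8). SMPD1 was at 36.0, 21.0 and 35.1 FPKM in SLS and 24.99, 29.99 and 11.06 FPKM in LLS, so that ZD8 was the lowest and ZD3 the next lowest, as for FAM46B. For FAM46A the genes were MARCH1 (r = 0.982), UTP6 (0.977), NEK3 (0.963), ATP2B4 (0.956) and ITIH3 (0.954), with 40 genes above 0.9 (71 without ZD8). MARCH1, a ubiquitin ligase of antigen-presenting cells, was at 0.70 to 1.35 FPKM in SLS and at 0.71, 0.84 and 2.14 FPKM in LLS. All points of these correlations share the 6 libraries, and ZD8 is an extreme of both FAM46A and FAM46B. The counts without ZD8 rest on fewer ovaries, which reach a high r more easily. Between the members themselves, r was -0.75 for FAM46A with FAM46B, -0.19 for FAM46A with FAM46C and -0.32 for FAM46B with FAM46C. Without ZD8 these became -0.25, -0.73 and -0.04, so the first and the last shrank and that of FAM46A with FAM46C grew.

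Small RNA had also been sequenced from these sows, and its table was used to list abundant miRNAs with a full seed match in the 3′ UTRs of the members. Such a match has 8 bases, the complement of miRNA bases 2 to 8 followed by A. Of the 63 miRNAs with a mean of at least 1000 RPM (the reads of a miRNA scaled by the total of its small RNA library), which have 44 different seeds, 3 had a match in the 3′ UTR of FAM46C. The median over 1448 genes, cut to the same 4403 bases, was 4 different matches, so FAM46C held no more than others. The miRNAs are printed with the seed in capitals and the sites of 30 bases on the strand of the gene with the match in capitals, since they are the regulatory sequences that these data can list for FAM46C.
miR-1: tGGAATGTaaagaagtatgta
FAM46C site for miR-1: cccatcttggtcACATTCCAagtatgactg
miR-214-3p: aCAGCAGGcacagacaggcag
FAM46C site for miR-214-3p: caaatctgggctCCTGCTGAtggcacgtgg
miR-202-5p: tTCCTATGcatatacttcttt
FAM46C site for miR-202-5p: cgtgtttgtttgCATAGGAAggttagaaga

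The matches lie at chr4:103135194-103135201 for miR-1, chr4:103133160-103133167 for miR-214-3p and chr4:103132212-103132219 for miR-202-5p. All are beyond the end of the shorter annotated transcript of FAM46C, which stops at 103136102. The same 8 bases were found in 11% of the 1448 cut 3′ UTRs for miR-1, in 13.7% for miR-214-3p and in 9.6% for miR-202-5p. A match is a description of the sequence and does not show that the miRNA acts there. miR-202-5p, a miRNA abundant in gonads, was at 11700, 15910 and 8011 RPM in SLS and 19070, 14660 and 2204 RPM in LLS, with ZD8 the lowest. miR-1, best known from muscle, was at 1468, 1516 and 1775 RPM in SLS and 1367, 665.7 and 2011 RPM in LLS. miR-214-3p was at 667.1, 1275 and 1398 RPM in SLS and 1383, 545.1 and 1545 RPM in LLS. All 3 overlapped between the groups.

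The 3′ UTR of FAM46A held 4 matches, at a pair of sites for the miR-23 seed and at 1 site each for miR-101 and the miR-30 family. The 3′ UTR of FAM46D held 3 and that of FAM46B held 0. In all, 12 abundant miRNAs had a match in a member, and the LLS and SLS levels of 0 of them were free of overlap, where 2.83% of the 353 miRNAs that reached 1 RPM in 3 or more libraries had groups that did not overlap.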

How the data were processed

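Total RNA without ribosomal RNA and small RNA were sequenced from 6 sow ovaries (3 SLS, 3 LLS). The authors trimmed reads with NGSQCToolkit, mapped them to Sscrofa11.1 with HISAT2 and deposited FPKM values; the program that counted reads is not given in the sources used here. For miRNAs the authors deposited RPM values under the name TPM. The processing notes name HISAT2 for one set of samples and BWA for the set marked rep; which set holds the small RNA is not stated, so miRNA columns were matched by the name of the ovary. All 12 columns were used. Whole reads were recovered from FPKM with the longest RefSeq transcript (99.6% of 23564 genes above 0, within 0.001 of a read) and from RPM (100% of values, within 0.1 of a read).

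Genes with at least 1 FPKM in at least 3 libraries were fitted by limma 3.58.1 (R 4.3.3, trended variance) on log2(FPKM + 1), where adding 1 understates changes of low genes. A call needed p under 0.05 after Benjamini-Hochberg adjustment together with a log2 difference beyond 1 either way, the study's thresholds. The study used a count model; edgeR 4.0.16 and DESeq2 1.42.0 on recovered reads were alternatives, with the pseudocount, filter, variance trend, array weights, scaling and left-out ovaries. The fits were tested on simulated data. The depth was between 32272803 and 60903268 reads per gene library and between 3537619 and 9854086 reads per small RNA library. Members and lists were chosen with earlier results of these data known. Named genes are the members, the 5 genes most correlated with each, and those of the polymerase and partner lists, with markers or list genes named beside a member. CHST9, GLIPR1, OAS1, RSAD2, USP18, IFI6, CPEB1, CPEB2, SOHLH1, PRLR and the miRNAs were named after their values were seen. Sequences and coordinates are from the RefSeq annotation of Sscrofa11.1, the build of the reads, read with samtools 1.23.1 and aligned with Biopython 1.88.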

Additional observations from a re-analysis of the deposited data

How the results depend on the processing

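The difference of FAM46C was 1.62 and stayed within 1 SD (pooled within the groups) of that under all 15 alternatives. It was 1.59 to 1.69 over 9, and 1.45 to 1.77 with each ovary left out. The gene was picked for groups that do not overlap, so leaving out an ovary could not change the sign. These values are a description only. The difference of FAM46B was -0.63 and negative under all 15 (-0.74 to -0.31 over 9, -0.95 to -0.13 with each ovary left out), with no call and adjusted p between 0.685 and 1. That of FAM46A (0.02) changed sign, to -0.0514 in edgeR, -0.0834 in DESeq2 and -0.23 under limma's array weights, and ran from -0.42 without ZD8 to 0.35 with each ovary left out, with no call. Array weights moved the median difference of all genes from 0.02 to -0.12 and DESeq2 to 0.11. The count of genes called was 0, but 13 with array weights, 13 by DESeq2, 99 at an unadjusted p with the fold threshold, and 0 to 21 with each ovary left out, of which the 21 came without ZD8. Genes that did not overlap numbered 239 higher and 389 lower in LLS, with 557 higher when no filter on low levels was used, and 343 to 912 higher and 548 to 1429 lower with each ovary left out, where fewer ovaries overlap less. FAM46A exceeded FAM46B by 0.61 to 1.25 with each ovary left out, with exact p = 0.0625, the smallest that 5 ovaries allow, and 0.0938 after adjustment over the 3 pairs. FAM46B exceeded FAM46D, at 0 or 1 read, by 2.81 to 3.20, and by 6.01 with 0.1 in place of 1 added to FPKM. FAM46C exceeded FAM46A by 2.52 in place of 0.51 when divided by its shorter transcript, and by 0.18 to 0.82 with each ovary left out. That length, the lists without ZD8 and the correlations without ZD8 were added after seeing the data. The cause of the other changes was not tested. No paired analysis was possible because SLS and LLS ovaries come from different sows and share no number in the labels. Below 3 reads, or 0.0184 to 0.0346 FPKM for FAM46D, the depth shows no difference.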
